A study of Rattus norvegicus with 14 samples.

Results

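The genes described here were 10, given by name, that encode enzymes breaking down the branched-chain amino acids leucine, isoleucine and valine in rat colonocytes. All 10 were found by symbol among the 26276 gene names of the array, through 12 of its 30367 probes. They were Bcat2, Bckdha, Bckdhb, Dbt, Ivd, Mccc1, Mccc2, Hibch, Aldh6a1 and Pccb. None of them was chosen by a threshold on its values. Male Wistar rats had eaten for 15 days either a normal-protein diet (NPD, 14% of energy as protein) or an isocaloric high-protein diet (HPD, 55% of energy as protein). Colonocytes, the epithelial cells lining the colon, were detached by perfusing the organ with EDTA, and the RNA of each rat was labelled with Cy3 and hybridised to 1 Agilent array. There were 7 NPD and 7 HPD arrays. Both groups were intact animals of the same strain and sex, and the colonocyte preparation was the same for both.

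The first step of branched-chain amino acid breakdown is a reversible transamination, carried out in most tissues outside the liver by the mitochondrial enzyme BCAT2. The resulting ketoacids are then committed to oxidation by the branched-chain ketoacid dehydrogenase (BCKDH) complex, which a kinase switches off and a phosphatase switches on. After that step the leucine, valine and isoleucine routes part, and the carbon of valine and isoleucine meets again at propionyl-CoA carboxylase on its way to the citric acid cycle.

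Each value below is a probe's background-subtracted signal on the log2 scale relative to the median probe of the same array. A level of one probe cannot be set against that of another, so levels are compared only between rats. A gene measured by several probes is represented by its brightest one. A probe was called at an adjusted p below 0.1 (limma, Benjamini-Hochberg over all 30367 probes). Since the median of all probes was itself 0.105 higher in HPD on this scale, a member with a log2 fold change of 0 lay below the middle of the array.

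The probes are strands of 60 bases. Those of Bckdhb and Ivd are shown because these members had the lowest p-values among the brightest probes, and both of Hibch because they read separate stretches of the mRNA. Positions are those given in the array files for the rat build rn4. The Bckdhb probe lies on the plus strand at chr8:89060810-89120215, a span of 59406 bases that contains an intron, and starts at base 945 of its transcript. The Ivd probe lies on the plus strand at chr3:105391611-105391670. The brighter Hibch probe lies on the minus strand at chr9:45565348-45565407 and the dimmer one on the same strand at chr9:45578300-45578359, with 12892 bases between them in the genome and 18 in the mRNA.
Bckdhb: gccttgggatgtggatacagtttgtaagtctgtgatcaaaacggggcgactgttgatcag
Ivd: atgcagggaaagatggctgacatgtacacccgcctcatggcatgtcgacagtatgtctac
Hibch, brighter probe: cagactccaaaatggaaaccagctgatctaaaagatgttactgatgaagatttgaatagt
Hibch, dimmer probe: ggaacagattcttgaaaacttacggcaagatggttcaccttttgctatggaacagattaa
The 2 probes of Bcat2, by contrast, shared a run of 50 bases and so were near copies of 1 measurement.

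Every member was detected in the RNA of these preparations, and which cells supplied its signal was not tested. All 12 probes were well above background and unsaturated on all 14 arrays. Between 18926 and 21042 probes reached that level on an array, and HPD arrays were dimmer, with a median net signal of 141 ± 13.0 (SD, n = 7) against 179 ± 21.3 (SD, n = 7) for NPD (p = 0.0035, exact permutation over all splits, two-sided). Arrays of both diets shared each of 2 slides, with 4 NPD beside 3 HPD rats on slide 1 and 3 NPD beside 4 HPD rats on slide 2. Markers of absorptive colonocytes were well above background on every array for 9 of 9 genes and those of goblet cells for 6 of 6. The summed linear level of the goblet cell markers, in multiples of the array median, ranged from 4730 to 7432 in NPD and from 3362 to 10665 in HPD, and 5 of the 6 were lower in HPD without a call. Immune markers were well above background on every array for 3 of 6 genes, stromal and muscle markers for 5 of 6, red blood cell markers for 1 of 3, and cycling and stem cell markers for 2 of the 3 found by symbol. No marker of any list was called. At an unadjusted limma p below 0.05 (11.4% of all probes), Clca1 (-0.56), Agr2 (-0.63), Myh11 (-0.48) and Top2a (-0.68) were lower in HPD. Itgam (0.34), Col1a1 (0.35), Col3a1 (0.61) and Hba-a2 (0.52) were higher at that threshold. Col3a1 was well above background on 0 NPD arrays and 1 HPD array. The part of cell composition in the values below was not tested. In RNA from many cells, fewer cells of a type and less RNA per cell cannot be told apart.

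None of the 10 members was called between the diets, where 0.056% of all probes were (17 of 30367, all 17 higher in HPD). By their brightest probes, 0 members had an unadjusted limma p below 0.05, against 11.4% of all probes, and the dimmer probe of Hibch was the exception among the 12. The adjusted p-values of the members ran from 0.452 to 0.971. The mean of HPD was lower for 6 members and higher for 4, with a median log2 fold change of -0.15. Across all probes 35.8% were lower in HPD, and 43.2% of those well above background on every array of a group. Measured from the median of all probes, 8 of the 10 members were below it and the median member stood at -0.25. Probes well above background on every array of a group had a lower median log2 fold change, 0.048. The median member lay less far below that value. For no member did the values of the diets separate without overlap, which happened for 0.274% of probes.

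**Figure D1:**
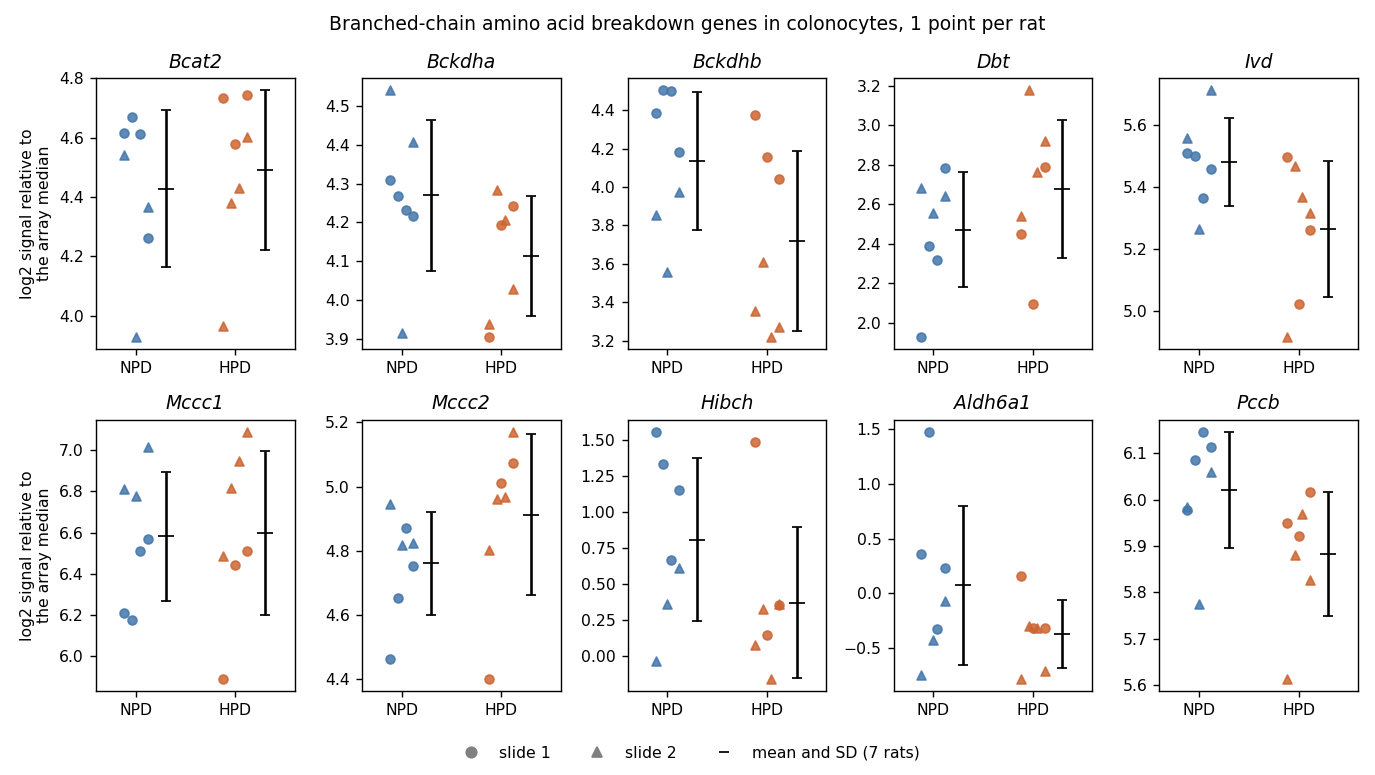
Log2 signal relative to the array median (vertical axis) of the brightest probe of each member in 7 NPD and 7 HPD rats, with circles for slide 1, triangles for slide 2, and bars for the mean ± SD. The diets overlap in all 10 panels, and in Bckdhb the triangles lie below the circles within each diet.

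Bcat2, the mitochondrial aminotransferase, had a similar range in both groups. Levels ran from 3.93 to 4.67 with a median of 4.54 in NPD, and from 3.96 to 4.75 with a median of 4.58 in HPD. The lowest rat of each group, NPD replicate 6 and HPD replicate 4, was on slide 2. HPD minus NPD came to a log2 fold change of 0.06 ± 0.15 (SE, n = 7 per group), with a 95% interval from -0.26 to 0.38 and an adjusted p of 0.840 in limma. The second, overlapping probe gave 0.05. Its sign was not stable, and it turned negative in the authors' deposited table (-0.091), with the median pixel signal (-0.033) and without NPD replicate 6 (-0.021).

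Bckdha encodes the E1 alpha subunit of the BCKDH complex, which holds the sites at which the kinase acts. Signals ranged from 3.91 to 4.54 in NPD (median 4.27) and from 3.91 to 4.28 in HPD (median 4.19). The groups overlapped, with 6 HPD rats of the 7 under the mean of NPD and 1 under the lowest NPD rat. Its log2 fold change was -0.16 ± 0.11 (SE, n = 7 per group), and the 95% interval ran from -0.40 to 0.09 (limma, adjusted p = 0.516). Within slide 1 it was -0.14 and within slide 2 -0.17.

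Bckdhb encodes the E1 beta subunit, the partner of BCKDHA in the decarboxylating part of the complex. Its level ran from 3.56 to 4.51 in NPD (median 4.18) and from 3.22 to 4.38 in HPD (median 3.61). The groups overlapped, although 3 of 7 HPD rats were below every NPD rat. The log2 fold change was -0.42 ± 0.21 (SE, n = 7 per group), a ratio of 0.748, and its 95% interval ran from -0.88 to 0.04 (limma, adjusted p = 0.452).

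Most of the spread of Bckdhb ran with the slide. On slide 1 the 4 NPD rats lay between 4.18 and 4.51 and the 3 HPD rats between 4.04 and 4.38. On slide 2 the 3 NPD rats lay between 3.56 and 3.98 and the 4 HPD rats between 3.22 and 3.61. All 7 HPD rats were below the NPD mean of their own slide. The same held for Bckdha, whose exact permutation p within slides was 0.133, and the share of all probes was not computed. Slide 2 minus slide 1 was -0.71 on the log2 scale (limma, adjusted p = 0.000781), a larger difference than that between the diets. With slide as a block the diet difference was -0.32 ± 0.11 (SE, n = 7 per group), with an unadjusted limma p of 0.0107 and an adjusted p of 0.220, where 14.6% of all probes had an unadjusted p below 0.05. An exact permutation test gave p = 0.0874 over all 3432 splits and p = 0.00898 over the 1225 regroupings within slides, two-sided and not adjusted for the number of genes.

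Dbt encodes the E2 transacylase that forms the core of the complex. It ran from 1.93 to 2.78 in NPD (median 2.56) and from 2.10 to 3.18 in HPD (median 2.76), and 3 HPD rats were above every NPD rat. A log2 fold change of 0.20 ± 0.17 (SE, n = 7 per group) had a 95% interval from -0.16 to 0.57 (limma, adjusted p = 0.568). The 3 subunits therefore differed in sign between the diets, with intervals that overlapped one another.

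Ivd, isovaleryl-CoA dehydrogenase, takes the leucine route past the BCKDH step. Ivd ran from 5.27 to 5.71 in NPD (median 5.50) and from 4.92 to 5.50 in HPD (median 5.32), and 3 of 7 HPD rats were below every NPD rat. Between the diets it differed by a log2 fold change of -0.22 ± 0.12 (SE, n = 7 per group), with a 95% interval from -0.47 to 0.03 (limma, adjusted p = 0.468). Of the 10 members Ivd alone had an exact permutation p below 0.05 over all splits, at 0.0490 without adjustment, and its value within slides was 0.0563. Its levels did not differ detectably between the slides (slide 2 minus slide 1, 0.03, limma adjusted p = 0.855), and the diet difference was -0.20 within slide 1 and -0.24 within slide 2.

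Mccc1 and Mccc2 encode the alpha and beta subunits of methylcrotonyl-CoA carboxylase, the biotin enzyme of the leucine route. Mccc1 ran from 6.18 to 7.02 in NPD (median 6.57) and from 5.89 to 7.09 in HPD (median 6.51). Mccc2 ran from 4.46 to 4.95 in NPD (median 4.82) and from 4.40 to 5.17 in HPD (median 4.97). The HPD range of both subunits was the wider, with HPD replicate 1 at its lower end and HPD replicate 7 at its upper end. For Mccc2, 5 of 7 HPD rats were above every NPD rat and 1 was below every NPD rat.

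Neither subunit passed the test. For Mccc1 the log2 fold change was 0.02 ± 0.19 (SE, n = 7 per group), with a 95% interval from -0.39 to 0.42 (limma, adjusted p = 0.971). For Mccc2 it was 0.15 ± 0.13 (SE, n = 7 per group), with a 95% interval from -0.12 to 0.42 (limma, adjusted p = 0.566). Mccc1 was higher on slide 2 by 0.53 (limma, adjusted p = 0.00784), and with slide as a block its diet difference was -0.059.

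Hibch, 3-hydroxyisobutyryl-CoA hydrolase, releases the free acid in the valine route. The brighter of the probes printed above ran from -0.04 to 1.55 in NPD (median 0.66) and from -0.16 to 1.48 in HPD (median 0.33). In HPD, replicate 1 stood at 1.48 and the next rat at 0.36. This probe had a log2 fold change of -0.44 ± 0.27 (SE, n = 7 per group), with a 95% interval from -1.02 to 0.14 (limma, adjusted p = 0.506). Without HPD replicate 1 it was -0.62, with an adjusted p of 0.182 in limma.

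The dimmer Hibch probe ran from 0.16 to 1.66 in NPD (median 0.67) and from -0.30 to 1.49 in HPD (median 0.21). Its log2 fold change was -0.67 ± 0.29 (SE, n = 7 per group), with an unadjusted limma p of 0.0383 and an adjusted p of 0.427. Both probes were thus lower in HPD, and both placed HPD replicate 1 far above the other HPD rats. For Hibch, slide 2 minus slide 1 was -0.69 (limma, adjusted p = 0.0260) on the brighter probe and -0.83 (limma, adjusted p = 0.00951) on the dimmer one.

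Aldh6a1, methylmalonate-semialdehyde dehydrogenase, ends the valine route by making propionyl-CoA. Its level ran from -0.75 to 1.48 in NPD (median -0.07) and from -0.78 to 0.16 in HPD (median -0.32). Its upper end in NPD was replicate 2. The log2 fold change was -0.44 ± 0.28 (SE, n = 7 per group), with a 95% interval from -1.04 to 0.15 (limma, adjusted p = 0.509), and it was -0.21 without NPD replicate 2. Its standard error and that of Hibch were the widest among the members, and the intervals of both reach a halved level as well as no difference.

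Pccb encodes the beta subunit of propionyl-CoA carboxylase, where the valine and isoleucine routes meet. Pccb ran from 5.78 to 6.15 in NPD (median 6.06) and from 5.61 to 6.02 in HPD (median 5.92). Every HPD rat was below the NPD mean, but only 1 was below the lowest NPD rat, replicate 6. HPD minus NPD was a log2 fold change of -0.14 ± 0.10 (SE, n = 7 per group), with a 95% interval from -0.35 to 0.07 (limma, adjusted p = 0.515). This was the smallest standard error of the 10 members.

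**Figure D2:**
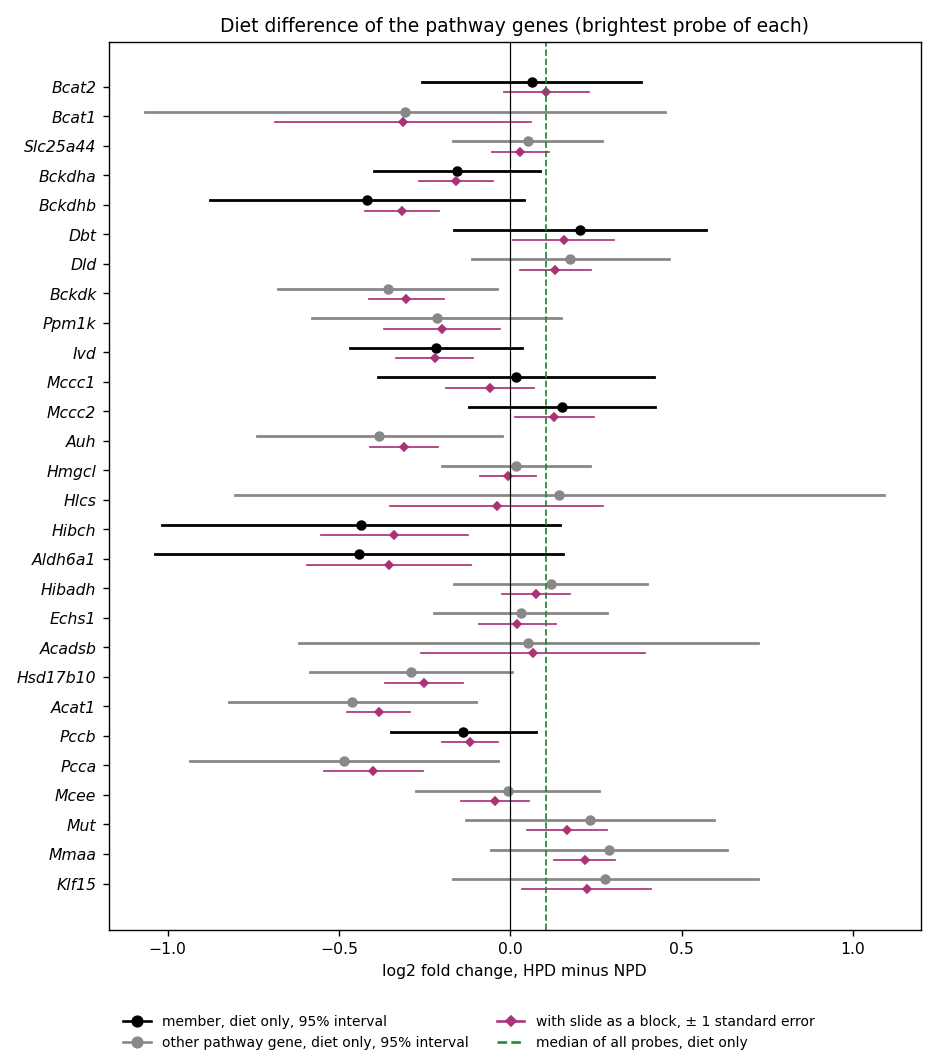
Log2 fold change of HPD minus NPD (horizontal axis) for the 10 members (black) and 18 other genes of the pathway (grey) with 95% intervals from the diet-only fit, and with slide as a block (diamonds, ± 1 standard error), the dashed line marking the median of all probes. All 10 black intervals cross 0, and those of Hibch and Aldh6a1 are the widest of the 10.

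The other genes of the route were taken from a list of 20, of which 18 were on the array by symbol and 16 of these were well above background on all 14 arrays. None of the 18 was called in either direction (0.056% of all probes were called). The unadjusted limma p was below 0.05 for 4, all lower in HPD, where 5.55% of all probes had such a p and were lower. Among probes well above background on every array of a group that share was 8.49%. The median log2 fold change of the 18 was 0.02, which lay 0.08 below that of all probes.

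Among the regulators, Bckdk, the kinase that inactivates the BCKDH complex, ran from 4.60 to 5.05 in NPD (median 4.84) and from 3.87 to 4.97 in HPD (median 4.50), and 5 of 7 HPD rats were below every NPD rat. Its log2 fold change was -0.36 ± 0.15 (SE, n = 7 per group), with an unadjusted limma p of 0.0307 and an adjusted p of 0.418. Ppm1k, the phosphatase that activates the complex, differed by a log2 fold change of -0.22 ± 0.17 (SE, n = 7 per group; limma, adjusted p = 0.542). Dld, the E3 subunit that other dehydrogenases share, had 0.18 ± 0.13 (SE, n = 7 per group; limma, adjusted p = 0.532). Klf15, a transcription factor known to induce branched-chain amino acid breakdown genes, had 0.28 ± 0.21 (SE, n = 7 per group; limma, adjusted p = 0.525).

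Pcca, the alpha subunit that joins PCCB, ran from 3.92 to 4.96 in NPD (median 4.53) and from 3.52 to 4.88 in HPD (median 3.98). Its log2 fold change of -0.49 ± 0.21 (SE, n = 7 per group) had an unadjusted limma p of 0.0363 and an adjusted p of 0.425, and its interval overlapped that of Pccb. Bcat1, the cytosolic aminotransferase, was well above background on 1 NPD array and on 0 HPD arrays, so that Bcat2 was the aminotransferase with a measurable level throughout. Of the 4 genes with the low unadjusted p, the other two were Auh (-0.38) and Acat1 (-0.46), enzymes of the leucine and isoleucine routes, which are named because of these values. Acat1 had the lowest adjusted p of the 18 in limma, 0.417. For these 4 genes slide 2 minus slide 1 ran from -0.38 (Bckdk) to -0.60 (Pcca), with limma adjusted p from 0.00158 to 0.0166. With slide as a block the diet difference was -0.30 for Bckdk, -0.40 for Pcca, -0.31 for Auh and -0.38 for Acat1. Their adjusted p in limma was then 0.207 to 0.239. In that fit 6 of the 18 had an unadjusted limma p below 0.05, where 14.6% of all probes did. Of these 6, 5 were lower in HPD, where 7.32% of all probes had such a p and were lower.

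**Figure D3:**
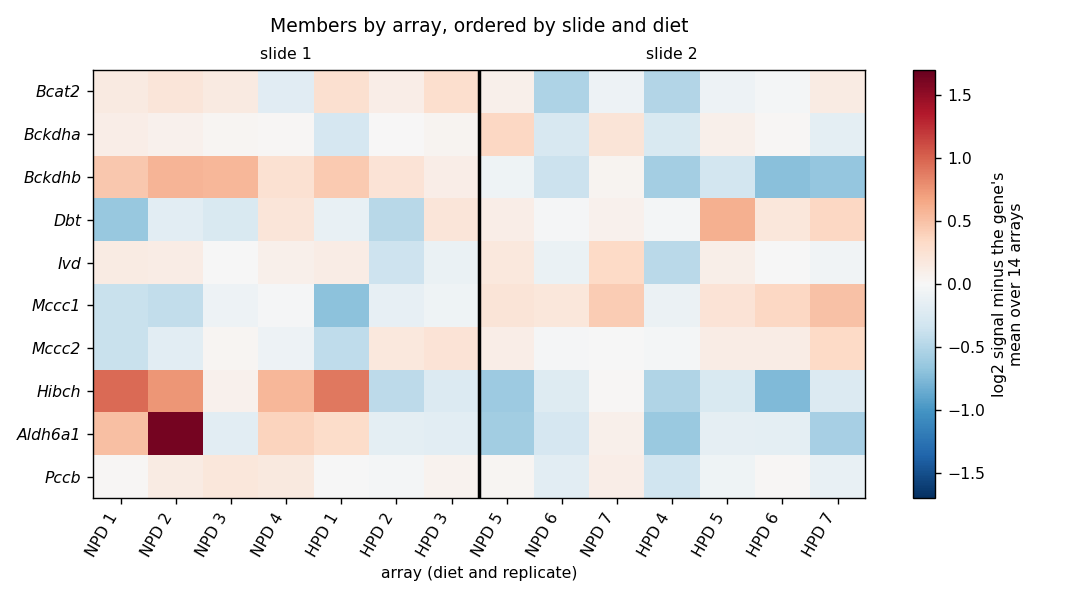
Log2 signal of each member minus its mean over the 14 arrays (colour), with arrays in columns ordered by slide and diet. Bckdhb, Hibch and Aldh6a1 are mostly above their mean on slide 1 and below it on slide 2, Mccc1 is the reverse, and no column block by diet is as clear.

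For most members the slides differed more than the diets. In a fit of diet and slide together, 6 of the 10 members differed between the slides at an adjusted p below 0.1 in limma, where 40.1% of all probes did. Bcat2, Bckdhb, Hibch and Aldh6a1 were lower on slide 2, and Dbt and Mccc1 were higher. For 8 of the 10 the slide difference was larger than the diet difference of the same fit, as for 16 of the 18 other pathway genes. How often that held over all probes was not computed. What the slides stand for besides the array and its scan is not given in the sources used here.

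The diet difference of all 10 members had the same sign on slide 1 as on slide 2, as for 11 of the 18 other pathway genes. That of Mccc1 was negative on both slides (-0.084 and -0.034), against 0.02 in the diet-only fit. How many of all probes kept their sign was not computed. The interaction of diet and slide had an unadjusted limma p below 0.05 for 0 members (1.39% of all probes). With slide as a block 0 members were called, against 0.0889% of probes. The mean was then lower in HPD for 7 of 10 (39% of all probes), and the median log2 fold change was -0.14. Of the brightest probes that of Bckdhb alone had an unadjusted limma p below 0.05 in that fit, and the dimmer Hibch probe had 0.0206.

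How the members varied from rat to rat was examined after removing the mean of each diet and slide cell, in 45 pairs over 14 rats. No pair passed a Benjamini-Hochberg adjusted p of 0.05, and 7 had an unadjusted permutation p below it. The correlation was positive in 35 of the 45 pairs, with a median r of 0.31. Against all 16065 genes well above background the median r of a member ran from -0.18 for Hibch to 0.23 for Mccc1, and was above 0 for 7 of the 10 members. The share of positive pairs among genes outside the list was not computed, so whether 35 of 45 is unusual was not tested.

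Mccc1 and Mccc2, which form a single enzyme, had the largest correlation (Pearson r = 0.86, exact permutation p = 0.00473, adjusted 0.213, and Spearman rho = 0.83, p = 0.00492, adjusted 0.221). Without the rats at the extremes, HPD replicates 1 and 4, r was 0.74. It was 0.93 on slide 1 and 0.76 on slide 2. Both genes correlated above 0.5 with many of the 16065 genes well above background (33.0% for Mccc1 and 32.7% for Mccc2), a larger share than for any other member.

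The subunits of the BCKDH complex did not show such a relation over the 14 rats. Their r was negative on slide 1 and positive on slide 2. For Bckdha with Bckdhb it was -0.57 and 0.70, for Bckdha with Dbt -0.11 and 0.54, and for Bckdhb with Dbt -0.46 and 0.56. Over all 14 rats r between Bckdha and Bckdhb was 0.33 (exact permutation p = 0.421, adjusted 0.583; rho = 0.27, p = 0.456, adjusted 0.659), and 0.31 without HPD replicate 1 and NPD replicate 6. Between Bckdha and Dbt r was 0.21 (exact permutation p = 0.374, adjusted 0.566; rho = 0.26, p = 0.362, adjusted 0.603), and 0.24 without the same rats. Between Bckdhb and Dbt r was -0.03 (exact permutation p = 0.935, adjusted 0.951; rho = 0.00, p = 1.0, adjusted 1.0), and -0.30 without HPD replicate 5 and NPD replicate 6.

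The next largest correlations were Ivd with Pccb (r = 0.70, exact permutation p = 0.0405, adjusted 0.260, and rho = 0.47, p = 0.144, adjusted 0.489) and Bcat2 with Ivd (r = 0.68, exact permutation p = 0.0375, adjusted 0.260, and rho = 0.49, p = 0.113, adjusted 0.461). Both rested on HPD replicate 4 and NPD replicate 6, without which r was 0.30 and 0.29. The lowest was Mccc2 with Hibch (r = -0.77, exact permutation p = 0.0372, adjusted 0.260, and rho = -0.62, p = 0.0652, adjusted 0.423). It was -0.57 without HPD replicates 1 and 3, -0.96 on slide 1 and 0.06 on slide 2.

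**Figure D4:**
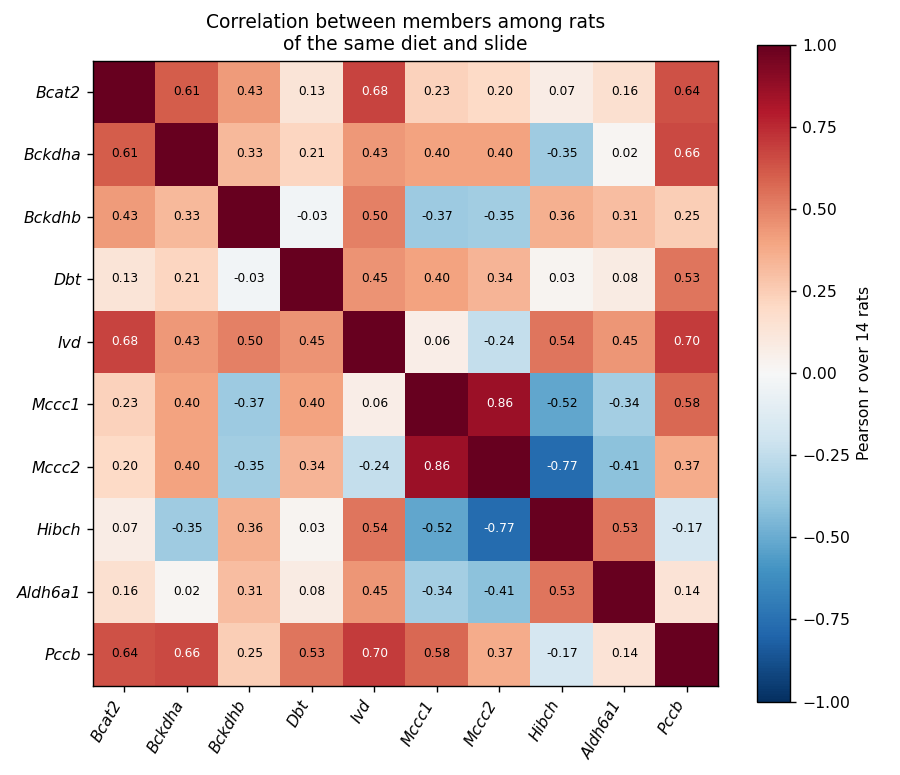
Pearson r (colour and printed value) between each pair of members over 14 rats, after removing the mean of each diet and slide cell. The strongest positive square is Mccc1 with Mccc2 at 0.86 and the strongest negative one Mccc2 with Hibch at -0.77.

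Among the highest and lowest rats of each member and diet, some recurred. HPD replicate 1 was the highest HPD rat for 4 members and the lowest for 3. NPD replicate 6 was the lowest NPD rat for 5 members and HPD replicate 4 the lowest HPD rat for 4. NPD replicate 2 was the highest NPD rat for 3 members and the lowest for 1, and NPD replicate 5 the highest for 2 and the lowest for 2. Without HPD replicate 1, 4 members had an exact permutation p below 0.05 (Bckdhb, Ivd, Mccc2 and Hibch), and without NPD replicate 6 there were also 4 (Bckdha, Bckdhb, Ivd and Pccb). Exact tests were not run over all probes. By limma, 5919 of 30367 probes had an unadjusted p below 0.05 without HPD replicate 1 and 4684 without NPD replicate 6. With all arrays 3465 did, so low p-values became more common across the array as well. None of the 10 was called by limma when any 1 array was left out.

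**Figure D5:**
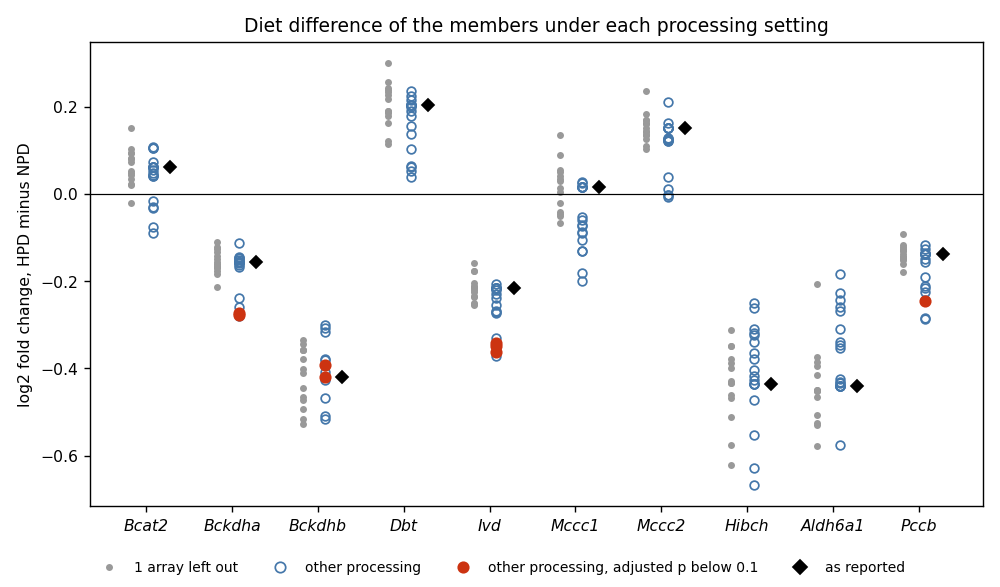
Log2 fold change of HPD minus NPD (vertical axis) of each member as reported (black diamonds), with 1 array left out (grey) and under other processing (circles, filled where the adjusted p was below 0.1). Bckdha, Bckdhb, Ivd, Hibch, Aldh6a1 and Pccb stay below 0 and Dbt above it in every setting drawn, while Bcat2, Mccc1 and Mccc2 cross 0.

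Members were called in 3 of the other settings. In the authors' deposited table with slide as a block 2 members were called lower in HPD, Bckdhb (-0.39, limma adjusted p = 0.0696) and Ivd (-0.34, limma adjusted p = 0.0922), where 10.5% of its 26414 rows were called. With normexp background correction centred on the array median there were also 2, Bckdha and Ivd, where 16.9% of probes were called. With slide as a block added to that correction there were 4, namely Bckdha, Bckdhb, Ivd and Pccb, where 27.9% of probes were called. Every member called in these 3 settings was lower in HPD. Over the whole deposited table with slide, 1717 of 26414 rows were called lower. Centred normexp called 1868 of 30367 probes lower, and 3233 of 30367 with slide added. In the settings that kept all arrays and called no member, other than slide as a block and the fit as reported, between 0.0263% and 0.234% of probes or table rows were called.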

How the data were processed

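Per the labels, each of the 14 arrays held Cy3-labelled colonocyte RNA of 1 rat. The authors deposited Feature Extraction 10.7.3.1 output, with the intensity of each spot on a linear scale, and their own normalized log2 table, with rows named by gene. The study's methods name log2 transformation, centring by array, averaged spots and limma, without the signal column or the centring statistic. Samples the authors removed as outliers were not analysed here.

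Here outlier spots (5539 over all arrays) and control spots were dropped. Background-subtracted signals were log2-transformed, averaged over the spots of a probe, centred on the array median and fitted with limma 3.58.1 in R 4.3.3, with diet as the only term and no filter on signal. Exact permutation tests used Python 3.11.15 and numpy 2.4.6. The number of arrays limits the precision. Alternatives changed the signal, background correction, normalization, filter, blocks, probe choice and arrays, 33 fits for each member. Gene symbols are those of the array, and 11 of the 12 member probes carried an accession that RefSeq's GRCr8 table gives under the same symbol. In simulated data for HPD against NPD over 30330 probes, noise was drawn independently for each probe. The fit called 14.9% of 67 probes shifted by 0.5 (log2), 62.7% of 67 shifted by 1 and 92.4% of 66 shifted by 2. It also called 11 probes that were not shifted. These shares hold for that number of shifted probes, and noise shared between probes was not simulated. The genes named were all 10 members, 6 regulators or partners of a list of 20 other pathway genes, and any of that list that was called (there were 0). Auh and Acat1 were named outside this rule, after their values were seen. The members and lists were chosen with earlier results of these data known.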

Additional observations from a re-analysis of the deposited data

Results flagged for a closer look

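In 40 groups of 7 rats tested, 3 had a rat far from the others, and chance flags about 1 in 20 such groups. All 3 were HPD replicate 1. Hibch stood there at 1.48 on the brighter probe, with the next HPD rat at 0.36, and at 1.49 on the dimmer probe, with the next at 0.27. Klf15 stood there at 2.28, with the next lowest HPD rat at 3.22. Without this rat the log2 fold change was -0.62 for Hibch (limma, adjusted p = 0.182) and 0.45 for Klf15 (limma, adjusted p = 0.146).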

How the results depend on the processing

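Of 575 values of 18 named genes under an alternative, 527 kept their direction and their side of the threshold, 20 passed the threshold and 28 changed sign. The sign changes were in Bcat2, Mccc1, Mccc2, Bcat1 and Dld, whose adjusted p stayed above 0.1. Bcat2 was -0.033 with the median pixel signal, -0.091 in the deposited table, -0.017 there with slide as a block, -0.076 with normexp centred on the array median, -0.030 with slide added, and -0.021 to 0.15 without 1 array, below 0 without NPD replicate 6. Mccc1 was -0.090 with the median pixel signal, -0.073 with quantile normalization and with normexp and quantile, -0.054 with cyclic loess, -0.059 with slide as a block, -0.13 in the deposited table and -0.18 there with slide, -0.088 with cyclic loess and slide, -0.10 with quantile and slide, -0.13 with centred normexp and -0.20 with slide added, and -0.066 to 0.13 without 1 array, below 0 without NPD replicate 1 or 2 or HPD replicate 5, 6 or 7. Mccc2 was -0.0036 in the deposited table, -0.0025 there with slide and -0.0069 with centred normexp and slide. Bcat1 was 0.013 with centred normexp and 0.0046 with slide added, and Dld was -0.0047 in the latter. Against 17 called probes, there were 27 with slide as a block, 36 with array quality weights, 40 with cyclic loess and slide, 71 with quantile and slide, 5142 with centred normexp and 8479 with slide added. Over the means of all probes of a gene 11 genes were called, and in the deposited table with slide 2767 rows. Leaving out 1 array gave 9 to 151, with 151 without HPD replicate 1, 28 without HPD 6, 9 without NPD 4 or 6, 10 without HPD 4 or 5 and 11 without NPD 2. Called members numbered 0 except 2, 2 and 4 in the deposited table with slide, centred normexp, and centred normexp with slide, where other pathway genes numbered 4, 5 and 5. Settings that combine slide with cyclic loess, quantile or centred normexp, and centred normexp itself, were chosen after seeing the data. Members with an exact p below 0.05 numbered 1, but 2 with the median pixel signal and in the deposited table, 4 with centred normexp, 0 with the 75th percentile, and 0 to 4 without 1 array (0 without NPD 1, 2, 4 or 7 or HPD 2, 4, 6 or 7, and 4 without HPD 1 or NPD 6). These exact counts have no share over all probes beside them. Member pairs passing the adjusted threshold numbered 0 in all 10 settings. No source used here ties same-numbered rats to each other. Outside the replicate block and the counts by number below, their replicate numbers were not treated as pairs. Deviations of same-numbered rats from their diet mean correlated over 0.1 in 6 of 7 pairs (0.14 to 0.39) and at -0.09 in pair 4. Pair 4 was the only pair split over both slides, and 5 of 14 rats correlated best with their own number. The slide was not removed from these deviations, so a shared slide and a pairing of rats cannot be told apart by them. A replicate block gave 8 called probes and 0 called members. In that fit 21.2% of all probes and 2 members, Bckdhb and Hibch, were under an unadjusted limma threshold of 0.05. Bckdhb had -0.42 ± 0.11 (SE), with an unadjusted limma p of 0.00565 and an adjusted p of 0.178, and Hibch -0.44 ± 0.19 (SE), with an unadjusted limma p of 0.0473 and an adjusted p of 0.232. Matched by number alone, Bckdhb was lower in HPD in 7 of 7 pairs, Hibch, Ivd and Pccb in 6, and Bckdha in 5. Aldh6a1 was lower in 4, Bcat2 in 3, Dbt and Mccc1 in 2, and Mccc2 in 1. Such counts were not made over all probes. The cause of these differences was not tested.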
